A study of Gallus gallus with 20 samples.

Results

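The 9 genes described here are core genes of the Notch pathway in the chicken: the receptors NOTCH1 and NOTCH2, the ligands JAG1, JAG2, DLL1 and DLL4, and the target genes HES1, HEY1 and HEY2. They were chosen by name, with earlier results of these data known, and are 9 of the 17839 protein-coding genes of the RefSeq annotation of the chicken genome build GRCg7b. Gene coordinates came from that annotation. Peaks were collected within 1 kb of either end of each gene, elsewhere in the gene body, and outside the gene within 20 kb of it.

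The study profiled chromatin in whole lenses of chicken embryos at embryonic day 4.5 by CUT&RUN, in which an antibody tethers a nuclease to chromatin so that the DNA around the bound protein or histone mark is released and sequenced. About 44 lenses went into each of 3 pools, and each reaction received 100000 nuclei. The antibodies were against H3K4me3, H3K27me3, EZH2, SUZ12, JARID2 and AEBP2, with 3 libraries each, and there were 2 libraries with the control antibody IgG. No genotype or treatment differed between libraries, and no strain was named in the labels. Dilutions were 1 in 100 (EZH2, SUZ12), 1 in 50 (H3K4me3, H3K27me3, JARID2 and the control) and 1 in 25 (AEBP2). The data consisted of a single peak list per antibody, so there was no value per library, no spread between replicates and no test. The depth behind the peaks is unknown. Each peak carries the authors' own fold enrichment and −log10 q, and these were used only to describe and rank peaks within their own list.

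Notch signalling passes between touching cells. A ligand of the Jagged or Delta family on a cell binds a Notch receptor on its neighbour, the receptor is cut, and its freed intracellular part enters the nucleus and joins the DNA-binding protein RBPJ. HES and HEY genes, which code for transcriptional repressors, are among the best known targets. In the mouse lens, Jag1 in newly forming fibre cells and Notch receptors in the epithelium help to keep a pool of dividing precursors. H3K4me3 marks promoters of active or poised genes. H3K27me3 is placed by the Polycomb repressive complex PRC2 and is linked to silencing. EZH2 is the catalytic subunit of that complex and SUZ12 a core subunit, while JARID2 and AEBP2 are accessory subunits. A region with both marks is often called bivalent, but in a mixed tissue the same picture arises when some cells carry the first mark and other cells the second, and peak lists of whole lenses cannot tell these apart.

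Over all protein-coding genes, 57.2% had H3K4me3 at a gene end and 26.0% had H3K27me3. The marker counts below are set beside these shares, and no difference was tested. The 17 lens markers examined all had H3K4me3 at a gene end and none had H3K27me3 there. None of the 9 endothelial markers had H3K4me3 at a gene end, and 5 had H3K27me3. Of the 8 blood markers found in the annotation, 1 had H3K4me3 and 3 had H3K27me3. Of the neural retina markers, 3 of 7 had H3K4me3 and 5 of 7 H3K27me3. Of the periocular mesenchyme markers, 4 of 7 had H3K4me3 and 6 of 7 H3K27me3, and of the surface ectoderm markers 2 of 6 had H3K4me3 and 2 of 6 H3K27me3. The lists held 11079 H3K4me3, 22875 H3K27me3, 25935 EZH2, 54487 SUZ12, 48093 JARID2 and 168110 AEBP2 peaks on chromosomes. Counts in different lists are therefore read only against how often all genes were marked in the same list.

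The 9 Notch genes fell into 3 states at their ends. Both receptors, JAG1 and HES1 carried H3K4me3 without H3K27me3 at their ends. JAG2, HEY1 and HEY2 carried both marks, and the Delta ligands DLL1 and DLL4 carried H3K27me3 without H3K4me3. No member lacked both marks. H3K4me3 was thus at a gene end of 7 of 9 members, against 57.2% of all protein-coding genes, and H3K27me3 at 5 of 9, against 26.0%. In the 9 members, H3K4me3 alone was found at 4 (44.4%), a share near the 45.3% of all genes. H3K27me3 alone was found at 2 of 9 members, against 14.0% of all genes, and both marks at 3 of 9, against 12.0%. Neither mark was found at 28.7% of all genes. With 9 genes and a single list per mark, none of these differences could be tested.

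The PRC2 subunits were counted at gene ends in the same way, each against its own share of all genes. EZH2 was at an end of 8 of 9 members (59.3% of all genes) and SUZ12 at 8 of 9 (64.5% of all genes). JARID2 was at 7 of 9 (43.2% of all genes). AEBP2 was at 4 of 9 (44.4%), a share near the 37.1% of all genes. EZH2 was absent from the ends of HES1 only, and SUZ12 from those of DLL1 only. All 4 subunits were found at the ends of 3 members, JAG2, DLL4 and HEY1, against 15.2% of all genes. For HEY1 this rested on a SUZ12 peak with a −log10 q of 2.05. For DLL4 it rested on an AEBP2 peak with a −log10 q of 2.46. With −log10 q of at least 5 both peaks dropped out, and JAG2 alone kept all 4.

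**Figure D1:**
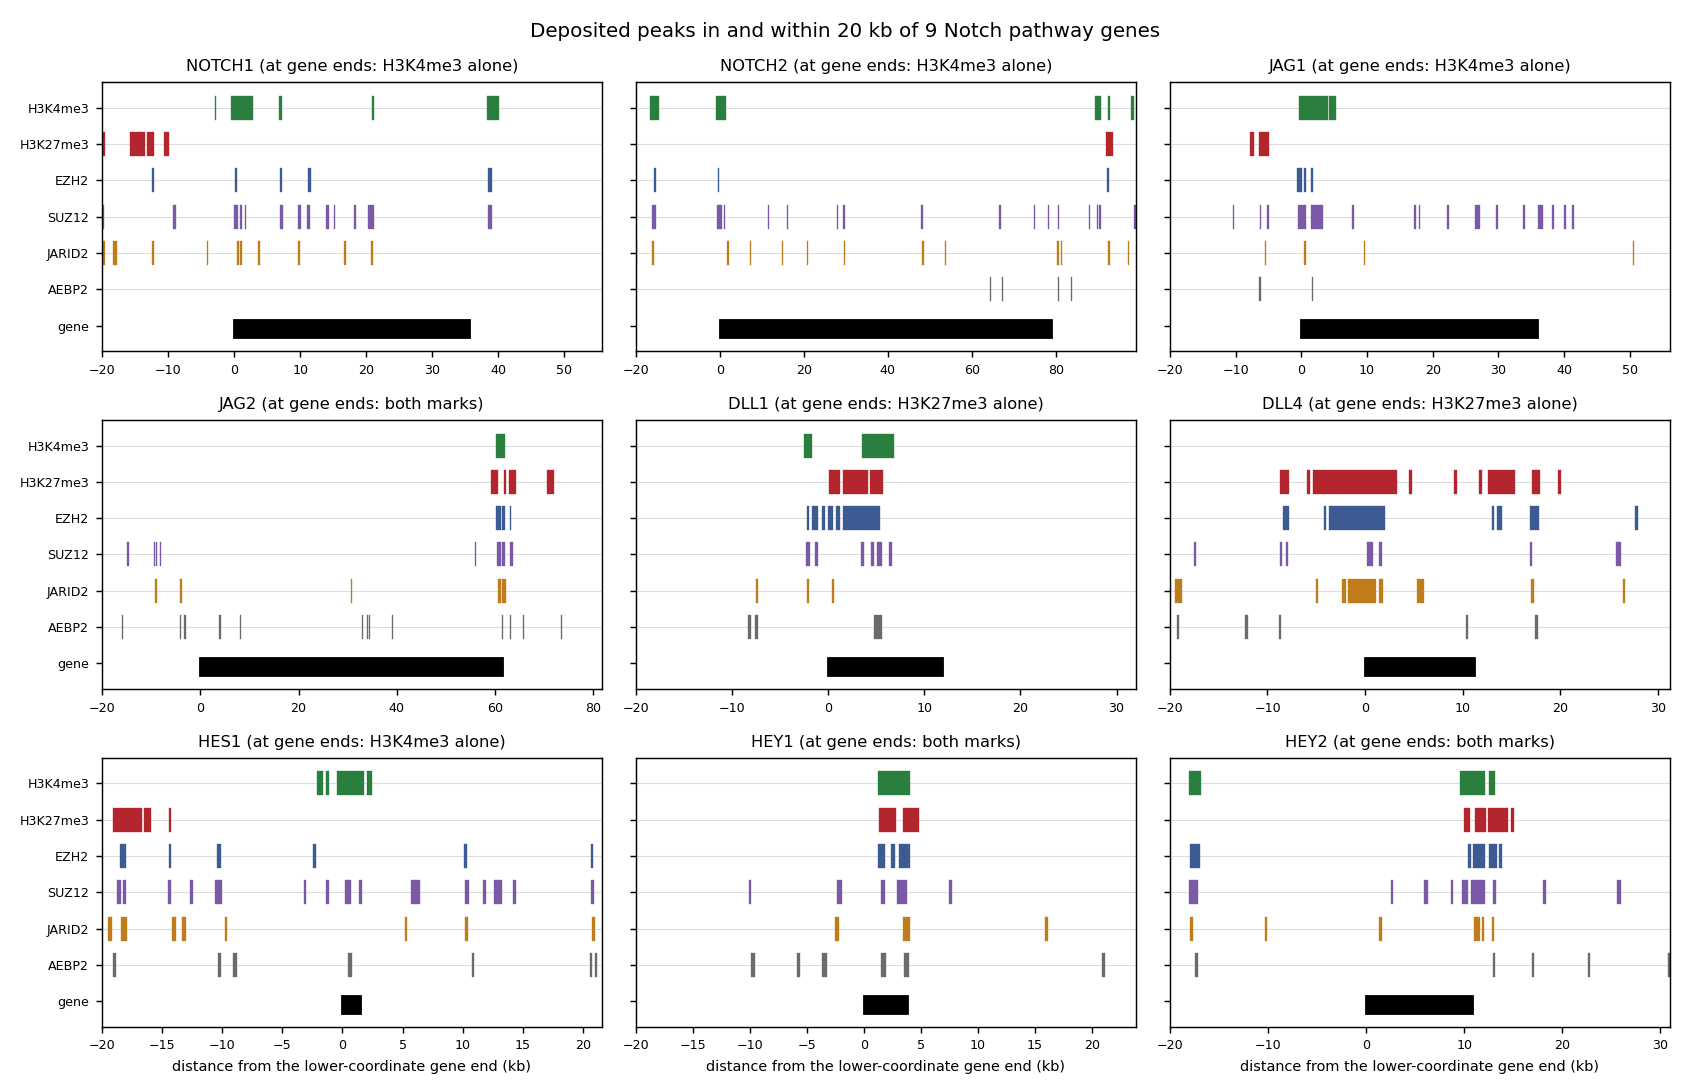
Deposited peaks of the 6 lists (rows) at each of the 9 genes, drawn as bars against the distance in kb from the lower-coordinate gene end, with the gene in black. NOTCH1, NOTCH2, JAG1 and HES1 have H3K4me3 over a gene end with H3K27me3 only in the flanks, DLL4 has no H3K4me3 peak, and DLL1 has an H3K4me3 peak inside the gene over H3K27me3.

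NOTCH1 and NOTCH2 code for the receptors. NOTCH1 spans 17:8415416-8451054, which is 35639 bp. Its main H3K4me3 peak was 3236 bp wide and ran from 447 bp outside the lower-coordinate end to 2788 bp inside the gene. That peak had a fold of 46.3 and a −log10 q of 1382, and 92.3% of the genes marked by H3K4me3 at an end had a lower fold. There were 2 weaker H3K4me3 peaks in the body, with folds of 3.66 and 2.53. A further H3K4me3 peak of 1832 bp lay 2.64 kb beyond the higher-coordinate end with a fold of 15.5, next to SEC16A, which starts 3689 bp from NOTCH1.

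No H3K27me3 peak lay in NOTCH1 or within 1 kb of it. The nearest was 9865 bp away, and 43.8% of all protein-coding genes lay closer to H3K27me3. The 4 H3K27me3 peaks in the flanks had folds up to 10.8. Of all protein-coding genes, 80.0% had fewer H3K27me3 peaks in the gene and within 20 kb. EZH2 was found at the end under the H3K4me3 peak, with a fold of 2.98, and at 2 places in the body. Of the genes marked by EZH2 at an end, 32.2% had a lower fold. SUZ12 had 13 peaks in NOTCH1 and within 20 kb, against a median of 6 for genes of like length (between 0.5 and 2 times as long), and 8 of the 13 were in the body. JARID2 had 10 peaks, against a median of 4 for genes of like length, and the strongest at the end had a fold of 5.14. The most numerous list gave none: AEBP2 had 0 peaks in NOTCH1 or within 20 kb. This was so for 15.3% of all genes, for 18.4% of the 320 genes of chromosome 17, and for 2.96% of the 4194 genes at least as long as NOTCH1.

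NOTCH2 spans 8:4165167-4244193, which is 79027 bp and the longest of the 9 genes. Its H3K4me3 peak at the lower-coordinate end was 2282 bp wide and reached from 935 bp outside to 1346 bp inside, with a fold of 21.5 and a −log10 q of 644. EZH2 lay 127 bp outside that end with a fold of 4.78, and the highest SUZ12 fold at an end was 4.80. The nearest H3K27me3 peak was 12832 bp beyond the other end, over an end of the neighbouring gene PDE4DIP. Of all protein-coding genes, 46.7% lay closer to H3K27me3. JARID2 had 13 peaks in NOTCH2 and within 20 kb, against a median of 5 for genes of like length. Of the 13 peaks, 7 were in the body and 0 at an end, so NOTCH2 was 1 of the 2 members without JARID2 at an end. SUZ12 had 16 peaks, against a median of 7, and 8 of the 16 were in the body. AEBP2 had 4 peaks, against a median of 8. The JARID2 peaks in the body were 195 to 419 bp wide with folds between 2.37 and 5.17, and those of SUZ12 were 194 to 598 bp wide with folds between 2.16 and 7.44.

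JAG1, the ligand known from the mouse to be needed in lens fibre formation, resembled the receptors. It spans 3:13191920-13227987 (36068 bp). An H3K4me3 peak of 4394 bp ran from 390 bp outside the lower-coordinate end to 4003 bp inside, with a fold of 43.9 and a −log10 q of 1405. It was wider than 99.3% of the H3K4me3 list and had a higher fold than 91.1% of the marked genes. The same peak covers an end of the gene LOC112532057, which overlaps that end of JAG1. A weaker H3K4me3 peak of 1028 bp with a fold of 3.30 lay from 4258 to 5285 bp inside the gene. SLX4IP overlaps the other part of JAG1. EZH2 had folds of 3.58 and 2.96 at this end and JARID2 3.21. SUZ12 had 16 peaks, more than 95.7% of genes of like length. The strongest of them in the body was 1828 bp wide with a fold of 7.93 and lay under the 4394 bp H3K4me3 peak, from 1505 to 3332 bp inside the gene. The nearest H3K27me3 was 4860 bp away, the closest among the 4 members without it at an end. Of all protein-coding genes, 37.2% lay closer to H3K27me3.

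JAG2, the other Jagged ligand, had a weaker H3K4me3 peak than JAG1 and had H3K27me3 as well. It spans 5:51624172-51685871 (61700 bp), and its marked end is the higher-coordinate end, which is overlapped by the lncRNA LOC107053564. Its H3K4me3 peak was 1780 bp wide with a fold of 5.51, and only 17.9% of the genes marked by H3K4me3 had a lower one. Its H3K27me3 at the end was weaker still within its list: the peak was 402 bp wide with a fold of 2.03 and a −log10 q of 3.94, and 2.37% of marked genes had a lower fold. A second H3K27me3 peak of 1405 bp with a fold of 2.58 lay in the body from 1084 to 2488 bp before the end. Another, of 1352 bp with a fold of 7.20, began 1169 bp beyond the end, just outside the 1 kb window. At this end SUZ12 reached a fold of 6.79, EZH2 6.40, JARID2 6.05 and AEBP2 2.41. Within their own lists these were higher than in 84.8%, 71.7%, 69.5% and 21.6% of marked genes, in the same order. AEBP2 had 13 peaks in JAG2 and within 20 kb, against a median of 7 for genes of like length, of which 71.3% had fewer. Of the 13 peaks, 6 were in the body.

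DLL1 and DLL4 code for Delta ligands. In background knowledge, DLL1 acts mainly in neural progenitors, somites and other embryonic tissues, and DLL4 mainly in arterial and sprouting endothelium. DLL4 had the highest H3K27me3, EZH2 and JARID2 folds at an end among the 9 genes, but not the highest SUZ12 or AEBP2 fold, and it had no H3K4me3. It spans 5:23929187-23940408 (11222 bp). A single H3K27me3 peak of 8635 bp ran from 5368 bp outside the lower-coordinate end to 3266 bp inside, with a fold of 44.7 and a −log10 q of 763. It was higher than in 90.2% of genes marked by H3K27me3 and wider than 97.4% of that list.

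EZH2 at the same end of DLL4 was a single peak of 5768 bp with a fold of 89.2 and a −log10 q of 1530, and 98.6% of marked genes had a lower fold. JARID2 covered 2915 bp there with a fold of 10.7, higher than in 91.7% of marked genes. Still higher JARID2 folds lay just outside the windows, 19.1 at 1958 bp beyond the end and 18.6 in the body starting 1382 bp inside. SUZ12 had a fold of 4.89 at this end, higher than in 62.3% of genes marked by SUZ12. The AEBP2 peak was at the opposite end with a fold of 2.83, and 33.3% of genes marked by AEBP2 had a lower one. In all, DLL4 had 9 H3K27me3 peaks in the gene and its flanks, where the median of genes of like length was 1 and 95.5% of them had fewer. It had 0 H3K4me3 peaks in the same span. The 9 endothelial markers also had no H3K4me3 at their ends, against 57.2% of all genes with it. H3K27me3 alone was at 5 of them (14.0% of all genes) and neither mark at 4 (28.7% of all genes). How far few endothelial nuclei in the pools bear on DLL4 was not tested.

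DLL1 spans 3:40510855-40522846 (11992 bp) and was marked differently from DLL4. Its ends carried H3K27me3 with a fold of 4.61, EZH2 with 6.52 and JARID2 with 3.11, and no H3K4me3, SUZ12 or AEBP2. Inside the gene, however, lay an H3K4me3 peak of 3388 bp with a fold of 32.0 and a −log10 q of 463, from 3503 to 6890 bp past the lower-coordinate end. Another H3K4me3 peak of 849 bp with a fold of 18.6 lay 1678 bp outside that end. The peak in the body begins close to an end of FAM120B, at 3:40514496, because that neighbour's annotated span reaches into DLL1. Which gene the peak belongs to could not be told from peaks. H3K27me3 lay in the gene in 3 peaks, with folds of 4.61, 3.99 and 8.76, the last lying from 4344 to 5682 bp. The first ended at 1228 bp, short of the H3K4me3 peak in the body, and the others overlapped that peak. Together the 3 H3K27me3 peaks covered 42.4% of the DLL1 body. A 3840 bp EZH2 peak with a fold of 8.34 ran from 1542 to 5381 bp, 4 SUZ12 peaks lay in the body, and an AEBP2 peak of 852 bp sat inside the last of these H3K27me3 peaks.

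Counted over the whole gene with 1 kb on both sides, DLL1 joined the members with both marks. On that count 4 of 9 members had both marks, against 16.4% of all genes. H3K4me3 was then at 8 of 9 members (61.6% of all genes) and H3K27me3 still at 5 of 9 (30.5% of all genes). SUZ12 was at all 9 (76.6% of all genes), EZH2 at 8 (66.9%), JARID2 at 8 (63.5%) and AEBP2 at 7 (57.8%).

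**Figure D2:**
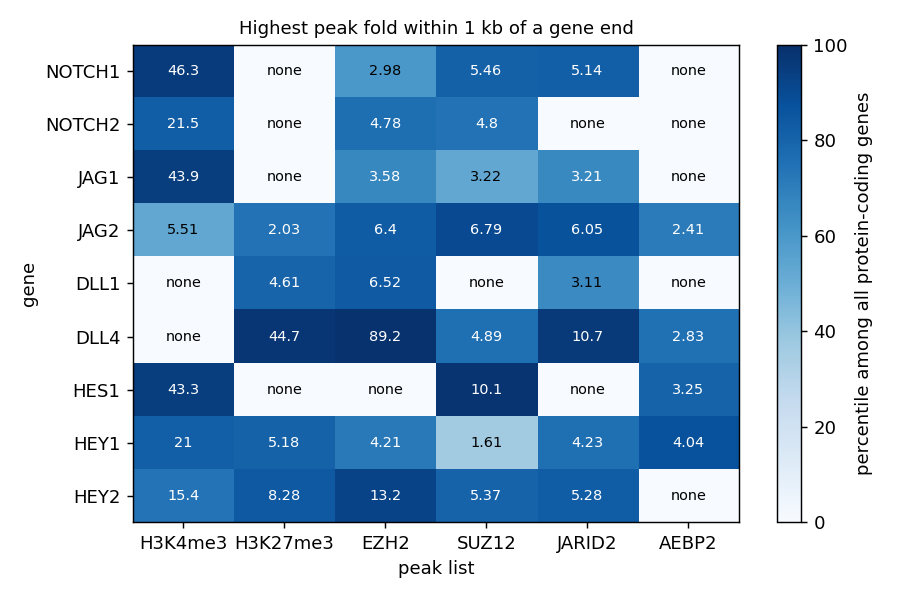
Highest authors' fold of a peak within 1 kb of a gene end for the 9 genes (rows) in the 6 lists (columns), coloured by the percentile of that fold among all protein-coding genes of the same list. Genes without a peak count as lowest, so JAG2 is at percentile 74.6 in H3K27me3 with a fold of only 2.03. NOTCH1, JAG1 and HES1 stand between 43.3 and 46.3 in H3K4me3, while DLL4 stands at 44.7 in H3K27me3 and 89.2 in EZH2.

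HES1, HEY1 and HEY2 code for the transcriptional repressors that read out Notch activity. HES1 is the shortest of the 9 genes, 1572 bp at 9:12619783-12621354. An H3K4me3 peak of 2240 bp covered the whole gene, from 463 bp outside the lower-coordinate end to 205 bp beyond the other, with a fold of 43.3 and a −log10 q of 1083. The fold was higher than in 90.8% of marked genes. Inside it, SUZ12 had a 527 bp peak with a fold of 10.1, higher than in 96.5% of marked genes and the highest SUZ12 fold at an end among the 9 members. AEBP2 had a peak of 353 bp there with a fold of 3.25. EZH2 and JARID2 were absent from the gene, and their 6 and 8 peaks all lay in the flanks. SUZ12 had 15 peaks in HES1 and within 20 kb, 13 of them in the flanks. The median for genes of like length was 4, and 98.3% of them had fewer. The nearest H3K27me3 was 14256 bp away, the farthest among the 9 members. Of all protein-coding genes, 48.1% lay closer to H3K27me3. HES1 had 3 H3K27me3 peaks in its flanks, and 76.9% of genes of like length had fewer.

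HEY1 (2:120346174-120350024, 3851 bp) and HEY2 (3:59516669-59527603, 10935 bp) both carried both marks, and in each the marked end was the higher-coordinate end. In HEY1 an H3K4me3 peak of 2770 bp with a fold of 21.0 lay over 2 H3K27me3 peaks, of 1529 bp with a fold of 3.48 and 1403 bp with a fold of 5.18. All 4 PRC2 subunits were at that end, JARID2 with a fold of 4.23, EZH2 with 4.21, AEBP2 with 4.04 and SUZ12 with 1.61. The SUZ12 value was low for its list: 1.32% of marked genes had a lower one.

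In HEY2 an H3K4me3 peak of 2531 bp with a fold of 15.4 lay over H3K27me3 peaks of 562 bp with a fold of 3.80 and 1066 bp with a fold of 8.28. A larger H3K27me3 peak, of 2044 bp with a fold of 11.3, began 1487 bp beyond the end, just outside the window. EZH2 at the end reached a fold of 13.2, higher than in 87.0% of marked genes, and AEBP2 was absent there. This end of HEY2 lies 88 bp from the lncRNA LOC121110508, so the same peaks lie within 1 kb of an end of that gene.

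Peaks of the 2 marks overlapped in 4 members, JAG2, DLL1, HEY1 and HEY2, while 11.2% of all genes had such an overlap in the gene or within 1 kb. Of the main H3K4me3 peak, H3K27me3 covered 37.0% in JAG2 (658 bp), 57.7% in DLL1 (1954 bp), 76.0% in HEY1 (2105 bp) and 63.3% in HEY2 (1602 bp). The median was 34.3% over the 244 H3K4me3 regions of at least 1780 bp that overlapped H3K27me3 anywhere in the genome, 1780 bp being the narrowest of these 4 peaks. Over all 1922 overlapping H3K4me3 regions, which include narrower ones, the median was 100%, above all 4 members. EZH2 covered most of the shared stretch in all 4: 100% in JAG2, 84.6% in DLL1, 69.3% in HEY1 and 76.9% in HEY2. SUZ12 covered 74.0%, 58.2%, 35.6% and 88.8% in the same order of genes. JARID2 covered 38.6% in JAG2, 0% in DLL1, 25.5% in HEY1 and 43.3% in HEY2. AEBP2 was in the shared stretch of DLL1 (43.6%) and HEY1 (42.7%) and absent from that of JAG2 and HEY2. Cover by the subunits was not computed for shared stretches elsewhere in the genome, so whether these values are unusual was not tested. H3K4me3 folds ran from 5.51 in JAG2 to 32.0 in DLL1 among these 4 genes, against 21.5 to 46.3 in the 4 members with H3K4me3 alone.

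**Figure D3:**
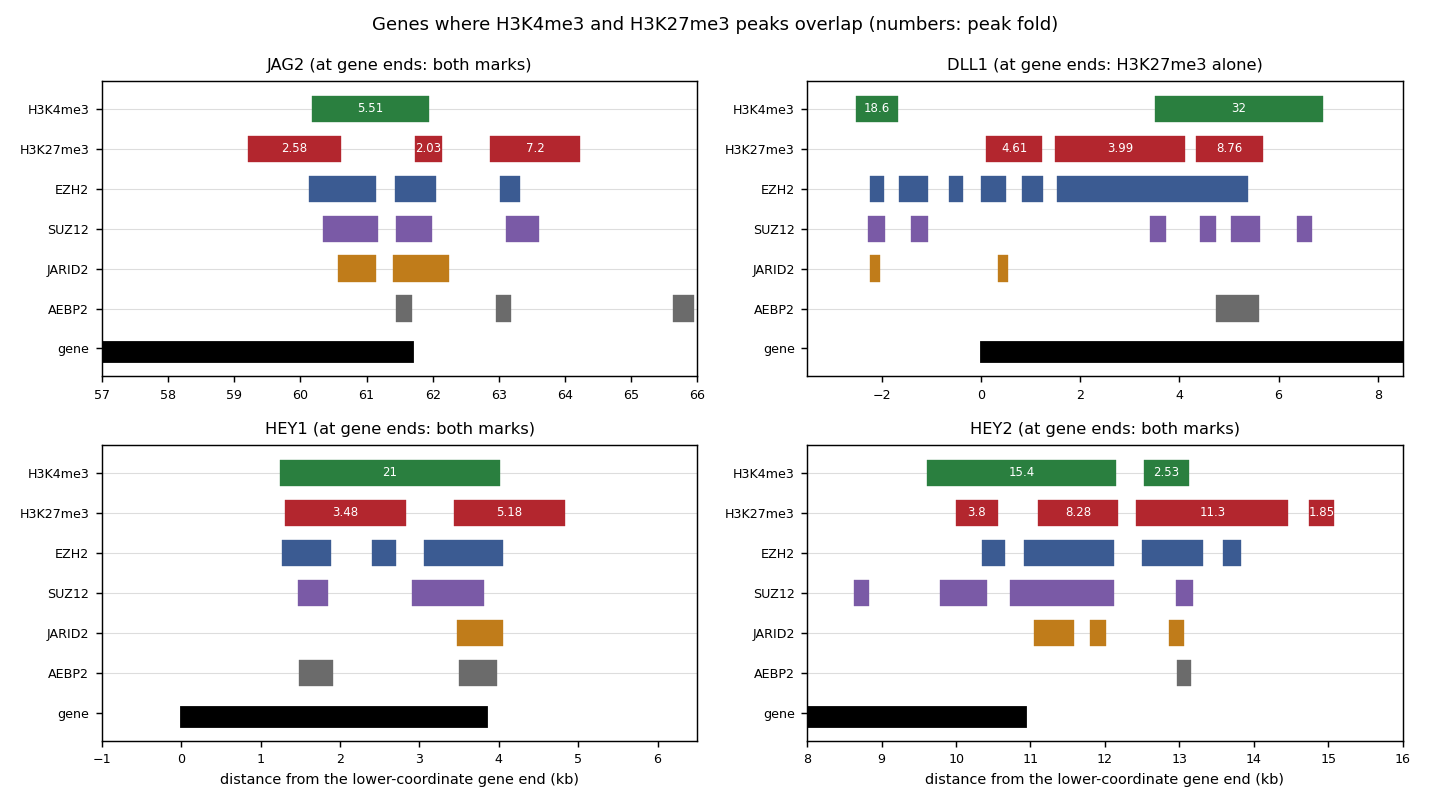
Close view of the 4 genes where H3K4me3 (green) and H3K27me3 (red) peaks overlap, with peaks of the PRC2 subunits and the gene below, against distance in kb from the lower-coordinate gene end. Numbers in the bars are the authors' folds, from 5.51 in JAG2 to 32.0 in DLL1 for the main H3K4me3 peak, and EZH2 runs along most of each shared stretch.

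The H3K27me3 regions differed in breadth. With peaks less than 3 kb apart joined, the widest H3K27me3 region in each gene or within 1 kb of it was taken. It was 13534 bp at DLL4, 5573 bp at DLL1, 5079 bp at HEY2, 5010 bp at JAG2 and 3532 bp at HEY1. All 5 widths depended on the joining. With no joining, only peaks in the gene or within 1 kb of it were compared. The widest of these was 8635 bp at DLL4, 2623 bp at DLL1, 1529 bp at HEY1, 1405 bp at JAG2 and 1066 bp at HEY2. At HEY2 a wider peak of 2044 bp, part of the joined region, began 1487 bp beyond the end and was not counted. With joining across 5 kb, DLL4 reached 28852 bp, because a second joined region over its higher-coordinate end was then taken in. The DLL4 region held 4 peaks at 3 kb and 9 at 5 kb. The other 4 regions were as wide as at 3 kb. H3K4me3 regions joined in the same way were 5709 bp at NOTCH1, 5676 bp at JAG1 and 4546 bp at HES1. Over the members marked at an end, the median fold was 21.5 for H3K4me3, against 13.7 for all marked genes, and 5.18 for H3K27me3, against 12.5. DLL4 was the only member whose H3K27me3 fold exceeded that median of marked genes. For the subunits the medians were 5.59 in members and 4.03 in all marked genes for EZH2, 5.13 and 4.27 for SUZ12, 5.14 and 4.62 for JARID2, and 3.04 and 3.37 for AEBP2.

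Peaks were also counted by position at these 9 genes. In all, 297 peaks lay in the 9 genes and within 20 kb of them, 56 at gene ends, 77 elsewhere in bodies and 164 in flanks. H3K4me3 had 8 of its 23 peaks at ends and 4 in bodies. H3K27me3 had 7 of 32 at ends and 6 in bodies, and EZH2 had 13 of 41 at ends and 6 in bodies. SUZ12 showed the opposite order, with 14 of 95 at ends and 34 in bodies, and so did JARID2, with 10 of 60 at ends and 16 in bodies, and AEBP2, with 4 of 46 at ends and 11 in bodies. The SUZ12 body peaks were concentrated in NOTCH1, NOTCH2 and JAG1, with 8 each, and these are 3 of the 4 longest members. This split by position was not made for all genes. How far list size and gene length bear on it was not tested.

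**Figure D4:**
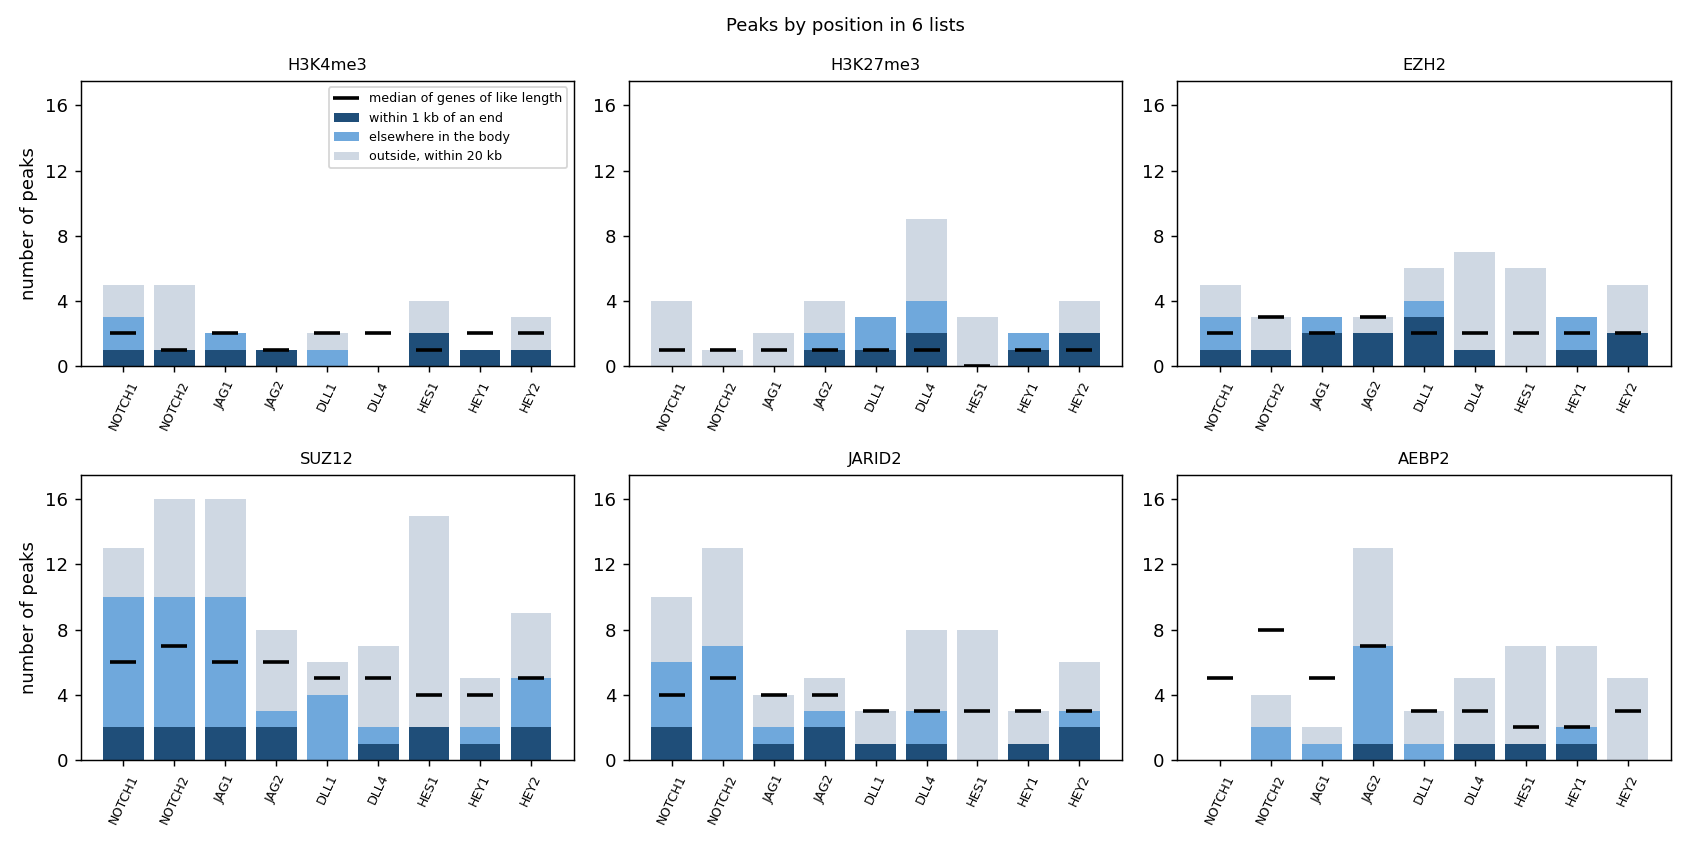
Number of peaks of each list at each of the 9 genes, stacked by position (within 1 kb of an end, elsewhere in the body, outside within 20 kb), with a black line at the median total for genes of like length. SUZ12 reaches 16 peaks at NOTCH2 and JAG1, H3K27me3 reaches 9 at DLL4, and AEBP2 has 0 at NOTCH1.

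Peaks of the subunits near the members met the histone marks to different extents. Of the 41 EZH2 peaks, 10 overlapped H3K4me3 only, 13 H3K27me3 only, 10 both and 8 neither. The share overlapping both was 24.4%, against 7.12% of the whole EZH2 list, and the share overlapping neither was 19.5%, against 37.9%. Of the 95 SUZ12 peaks, 53 overlapped neither mark (55.8%, against 69.6% of the list), and of the 60 JARID2 peaks 36 did (60.0%, against 72.8%). AEBP2 overlapped neither in 33 of 46 peaks (71.7%, against 93.8%). Seen from the marks, 10 of the 13 H3K27me3 peaks at ends or in bodies of the members overlapped EZH2 (76.9%, against 30.2% of the H3K27me3 list). SUZ12 overlapped 9 (69.2%, against 23.0%) and JARID2 6 (46.2%, against 25.7%), while AEBP2 overlapped 3, a share near that of the list (23.1%, against 24.9%). Of the 12 H3K4me3 peaks, 8 overlapped EZH2 (66.7%, against 71.4% of the H3K4me3 list) and 10 SUZ12 (83.3%, against 78.8%), both shares near those of the list. JARID2 overlapped 6 (50.0%, against 36.7%) and AEBP2 5 (41.7%, against 30.6%). Peaks near the members lie close to genes, unlike many peaks of the whole lists, and the part of this in these shares was not tested.

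Likeness to other genes was measured as the mean absolute difference, over the 6 lists, of the percentile of the highest fold at an end among all protein-coding genes. Genes without a peak were placed lowest, so the presence or absence of a peak weighs heavily in this measure. The closest pair among the members was NOTCH1 and JAG1, with a difference of 8.62 points, and the farthest was DLL1 and HES1, with 83.6. Outside the members, the genes most like NOTCH1 were AP2M1 (1.01) and CABP2 (1.49), and those most like NOTCH2 were DCPS (0.504) and CMTM3 (0.625). DNASE1 (1.05) and ARHGEF11 (1.23) were most like JAG1. PSD (2.70) and MITF (2.85) were most like JAG2. For DLL1 the likest genes were FERMT1 (1.43) and KCTD16 (1.55), and for DLL4 SLC32A1 (1.56) and DAB2IP (1.68). For HES1 they were ZC3H3 (1.64) and ANTXRL (2.15). HEY1 had the least similar nearest genes, GAS2L1 (4.79) and PCASP1 (6.13), and HEY2 was closest to C12orf75 (1.29) and ZRANB2 (3.34).

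The rest of the pathway was examined through a list of 67 further genes, of which 58 were found in the annotation. At gene ends H3K4me3 was found in 44 of 58 (75.9%, against 57.2% of all genes) and H3K27me3 in 14 (24.1%, against 26.0%), the second share being near that of all genes. H3K4me3 alone was found in 35 (60.3%, against 45.3%) and H3K27me3 alone in 5 (8.62%, against 14.0%). Both marks were found in 9 (15.5%, against 12.0%) and neither in 9 (15.5%, against 28.7%). EZH2 was found in 41 (70.7%, against 59.3%) and SUZ12 in 44 (75.9%, against 64.5%). JARID2 was found in 28 (48.3%, against 43.2%) and AEBP2 in 29 (50.0%, against 37.1%).

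No H3K27me3 peak lay at an end of the genes listed under receptor glycosylation and folding or under receptor cleavage. Over all genes the shares at an end were 57.2% for H3K4me3 and 26.0% for H3K27me3. With so few genes per role, here and below, no difference from all genes was tested. Of the 7 genes listed under glycosylation and folding, not all of them specific to Notch, 5 had H3K4me3 and 0 had H3K27me3. These include RFNG with an H3K4me3 fold of 120 and LFNG with 35.6, both coding for Fringe enzymes that modify the receptor and change its response to ligands. The RFNG peak also lies within 1 kb of an end of GPS1. MFNG, in the same group, had H3K27me3 in the gene body, with a fold of 3.31. Of the 7 genes for receptor cleavage, 6 had H3K4me3 and 0 had H3K27me3, among them the proteases ADAM10 with a fold of 31.0 and ADAM17 with 24.6. The ADAM10 peak is shared in the same sense with FAM63B.

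Among 12 genes for trafficking and turnover of ligands and receptors, 8 had H3K4me3 alone (45.3% of all genes). H3K27me3 alone was at 2 (14.0% of all genes) and both marks at 2 (12.0%). ITCH, a ubiquitin ligase, had an H3K4me3 fold of 60.2, and AAK1, a kinase of endocytosis, 29.7. The highest H3K27me3 folds were at DTX3L (57.9), NEURL1 (38.4), NEURL1B (18.2) and DTX1 (13.3), which code for ubiquitin ligases of the Deltex and Neuralized families. The peaks at DTX3L, NEURL1 and DTX1 also lie within 1 kb of ends of PARP9, CALHM3 and RASAL1. Among the 19 genes of the nuclear complex and its cofactors, 12 had H3K4me3 alone (45.3% of all genes) and 1 H3K27me3 alone (14.0%). Both marks were at 3 (12.0% of all genes) and neither at 3 (28.7%). The corepressor SPEN had an H3K4me3 fold of 109 and the deacetylase HDAC1 66.7, the second through a peak that also lies within 1 kb of an end of MARCKSL1. H3K27me3 was highest at the corepressor TLE4 (10.9), the RBPJ relative RBPJL (10.5), the corepressor CIR1 (6.39) and the coactivator MAML2 (4.46). A count of both marks also takes in marks at opposite ends, as at CIR1. There H3K4me3 was at the lower-coordinate end, in a peak also within 1 kb of an end of SCRN3. The H3K27me3 peak of CIR1 lay beyond the higher-coordinate end.

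Of 5 other receptors and ligands, the non-canonical ligands DLK1, DNER and DLK2 had H3K27me3 folds of 34.6, 3.92 and 2.94. H3K4me3 was highest at DNER, with 11.8, and CCN3, with 1.78. Of 8 other targets and relatives of the HES and HEY genes, 3 had H3K4me3 alone (45.3% of all genes) and 1 H3K27me3 alone (14.0%). Both marks were at 2 (12.0% of all genes) and neither at 2 (28.7%). H3K27me3 folds were 35.2 at HEYL, 22.9 at HELT and 14.2 at BHLHE41, through peaks also within 1 kb of ends of NT5C1A, ACSL1 and SSPN. HEYL also had H3K4me3 with a fold of 28.8, and the Notch feedback inhibitor NRARP had 18.1.

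For 9 of the 58 genes neither mark lay at an end, but this did not always mean an unmarked gene. In the whole gene, TSPAN14 had H3K4me3 with a fold of 16.9, MAML1 with 27.5, CTBP2 with 50.2 and RBPJ with 8.19. RBPJ, the DNA-binding protein of the pathway, also had H3K27me3 with a fold of 4.16, as did EGFL7 with 34.3 and MFNG with 3.31. POFUT2, HES5 and HES6 had neither mark in the gene or within 1 kb.

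**Figure D5:**
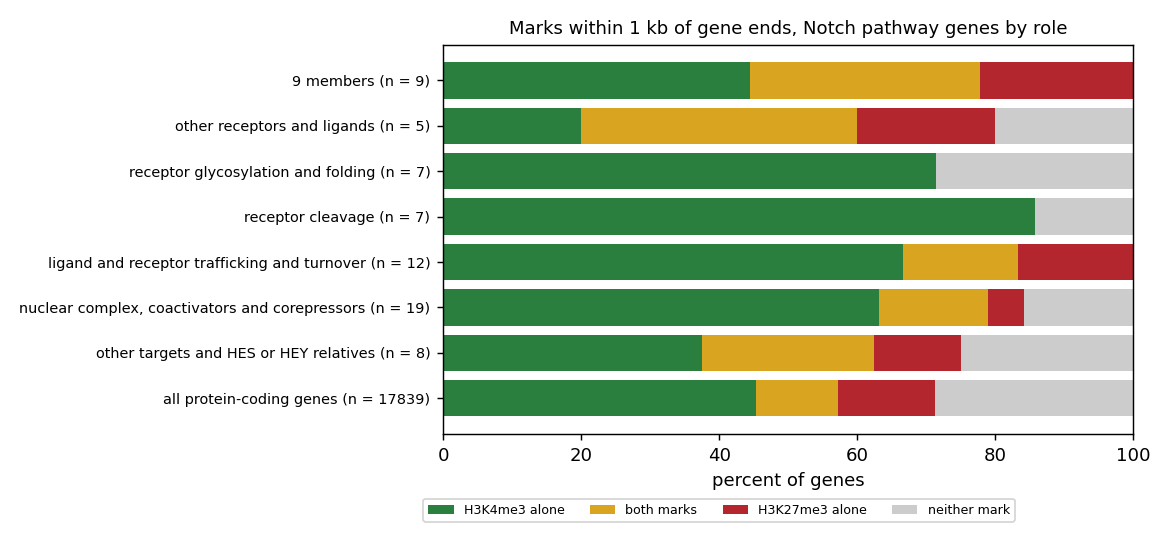
Percent of genes with H3K4me3 alone, both marks, H3K27me3 alone or neither within 1 kb of a gene end, for the 9 members, the 58 other pathway genes by role and all 17839 protein-coding genes. Genes listed under receptor cleavage and under receptor glycosylation have no H3K27me3 at an end, while all 9 members have a mark.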

How the data were processed

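Chicken lens CUT&RUN libraries were grouped by the antibody in their labels. Per the submitters' processing notes, the tools were MACS2 (version 2.2.7.1), Bowtie2 (version 2.4.1) and Trim Galore (version 0.6.4), on the build GRCg7b. Settings, any pooling of the 3 libraries and any use of IgG as the control in peak calling are not given in the sources used here. Deposited narrowPeak lists give for each peak the authors' fold enrichment, −log10 q-value, a score that is 10 times −log10 q, and a summit offset. No threshold was added. A gene was called marked where a peak overlapped a window of 1 kb on both sides of either gene end by at least 1 bp; the gene table gives no strand, so both ends count. Python 3.11.15, pandas 2.3.3 and numpy 2.4.6 were used, and the overlap code was tested on simulated peaks. No sequences were used. The members and the gene lists were chosen with earlier results of these data known. All members are named. Of the wider list, up to 4 genes per role with the highest H3K27me3 fold and up to 2 with the highest H3K4me3 fold are named. Some, but not all, genes in counts of 5 or fewer are named as well. Likest genes are the closest 2 with a symbol. Alternative windows, thresholds, list sizes and overlaps are in the closing section.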

Additional observations from a re-analysis of the deposited data

How the results depend on the processing

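The 16 counts of genes marked at their ends were recomputed under 6 alternatives, which gave 96 counts, of which 78 stayed within 1.5 times the reported count and 18 did not. Under the alternatives, shares of all genes were computed for each list but not for a mark alone, both marks or neither. Changes in those counts therefore cannot be set against all genes. With windows of 2.5 kb, AEBP2 was at 7 members (50.3% of all genes) and H3K27me3 alone at 1, DLL1 then having both marks. With the whole gene and 1 kb on both sides, AEBP2 was at 7 members (57.8% of all genes) and H3K27me3 alone at 1, and in the wider list JARID2 was at 46 genes (63.5% of all genes) and AEBP2 at 44. When at least 50% of a peak had to lie in the window, H3K4me3 was at 4 members (53.7% of all genes), H3K4me3 alone at 2 and neither mark at 2, since NOTCH1, JAG1 and HEY1 have wide H3K4me3 peaks that reach beyond the window. HEY1 then had H3K27me3 alone, DLL4 lost EZH2, and H3K27me3 was at 6 genes of the wider list (14.0% of all genes). With −log10 q of at least 5, AEBP2 was at 18 genes of the wider list (24.0% of all genes). With each list cut to its 11079 strongest peaks, SUZ12 was at 4 members (21.8% of all genes), JARID2 at 2 (14.0%) and AEBP2 at 0 (2.99%), and in the wider list EZH2 was at 17 genes (29.8% of all genes), SUZ12 at 18, JARID2 at 8 and AEBP2 at 1. JAG2 lost H3K27me3 at its end both with −log10 q of at least 5 and with lists of equal size. A window at the transcription start alone was not run, because the gene table used here has no strand, and motifs were not searched, because no sequence was used. No paired analysis was possible because each antibody has a single peak list, and for the same reason no library could be left out. An absent peak means only that none passed the authors' threshold at an unknown depth.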
